A study of Mus musculus with 6 samples.

Results

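The autophagy machinery was examined as 45 genes chosen by their known roles, with earlier results of these data known. They run from the kinase complex that starts the process to the receptors that load cargo. Their transcripts were read in purified platelets of mice that carry 1 copy of Nxf1 with the missense allele C587R (genotype Nxf1+/C587R) and of wild-type littermates. Nxf1 encodes the receptor that takes most mRNA out of the nucleus. All animals were males on a BalB/c background, with no age in the labels, and the control libraries are shared with another series. Each of the 6 libraries was a pool of CD41-positive platelet suspensions from several animals of 1 genotype, with 3 pools per genotype and 1 pool of each genotype on each of 3 preparation days. Of the 45 genes 43 were among the 9822 genes in the count tables, and Wipi1 and Atg4c were not. All 9822 genes exceeded 0.5 CPM (counts scaled to a common library total) in at least 3 libraries. Of the 43 autophagy genes 41 exceeded that level in all 6 libraries and 0 did so through 1 genotype alone.

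Autophagy encloses cytoplasm, organelles or protein aggregates in a double membrane, the autophagosome, and delivers them to the lysosome. The ULK kinase complex starts it, a lipid kinase complex around Beclin 1 marks the membrane with PI3P, and lipid scramblases and transfer proteins feed the growing membrane. A pair of ubiquitin-like conjugation systems then attaches ATG8 proteins (the LC3 and GABARAP families) to the membrane, where cargo receptors bind them. Platelets have no nucleus, so their mRNA comes from the megakaryocyte, and autophagy genes are needed for normal platelet activation in mice.

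Vmp1 was the autophagy gene that changed most. It encodes an endoplasmic reticulum scramblase that moves lipid between membrane leaflets while the autophagosome forms. The gene (Entrez 75909) lies on the minus strand of chromosome 11, 86583858 to 86683836 in mm10, and its first annotated start lies 238 bases from that of Ptrh2, a gene on the other strand that encodes a mitochondrial peptidyl-tRNA hydrolase. The stretch just before the Vmp1 start is shown because it separates the starts of this head-to-head pair. It covers chr11:86683837-86684086 of GRCm38.p6 (from RefSeq, minus strand, 5′ to 3′), and the 13 bases in capitals lie at or past the annotated start of Ptrh2.

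Vmp1 upstream: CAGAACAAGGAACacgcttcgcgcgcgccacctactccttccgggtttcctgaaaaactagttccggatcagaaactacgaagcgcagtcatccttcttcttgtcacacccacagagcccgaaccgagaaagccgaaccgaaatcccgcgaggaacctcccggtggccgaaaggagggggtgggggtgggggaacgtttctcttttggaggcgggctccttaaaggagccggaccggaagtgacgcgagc

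These 250 bases had a GC content of 59.2% and held 23 CG pairs. The last exon of Vmp1, exon 12 of transcript Vmp1-201, also holds the hairpin of the microRNA miR-21a in its untranslated part, at 86584067 to 86584158 on the same strand. Its main mature product, from RefSeq with the seed (bases 2 to 8) in capitals, is shown because its hairpin lies within the gene whose counts were lower. The microRNA itself has no row in these count tables.

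mmu-miR-21a-5p: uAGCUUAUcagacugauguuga

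Vmp1 stood at 173.1, 190.8 and 140.1 CPM in the wild-type pools of days 1, 2 and 3, and at 49.3, 51.1 and 43.2 CPM in the mutant pools. CPM values here are scaled by the TMM method, which aligns the libraries on the bulk of their genes. The lowest wild-type pool was thus far above the highest mutant pool, and the genotypes did not overlap. Mean levels were 168.0 ± 25.7 CPM for the wild-type and 47.9 ± 4.11 CPM for the mutant (SD, n = 3 each), so the transcript was 3.51-fold lower. On the log2 scale the change was -1.81 with an SE of 0.13 (adjusted p = 1.46e-08 over all genes, Benjamini-Hochberg, from the quasi-likelihood test of edgeR). Within days 1, 2 and 3 it was -1.81, -1.90 and -1.70. Vmp1 ranked 11 of the 9822 genes by p and 52 of the 900 lower genes by fold. In pooled platelets, fewer platelets that carry a transcript and less of it per platelet cannot be told apart.

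**Figure D1:**
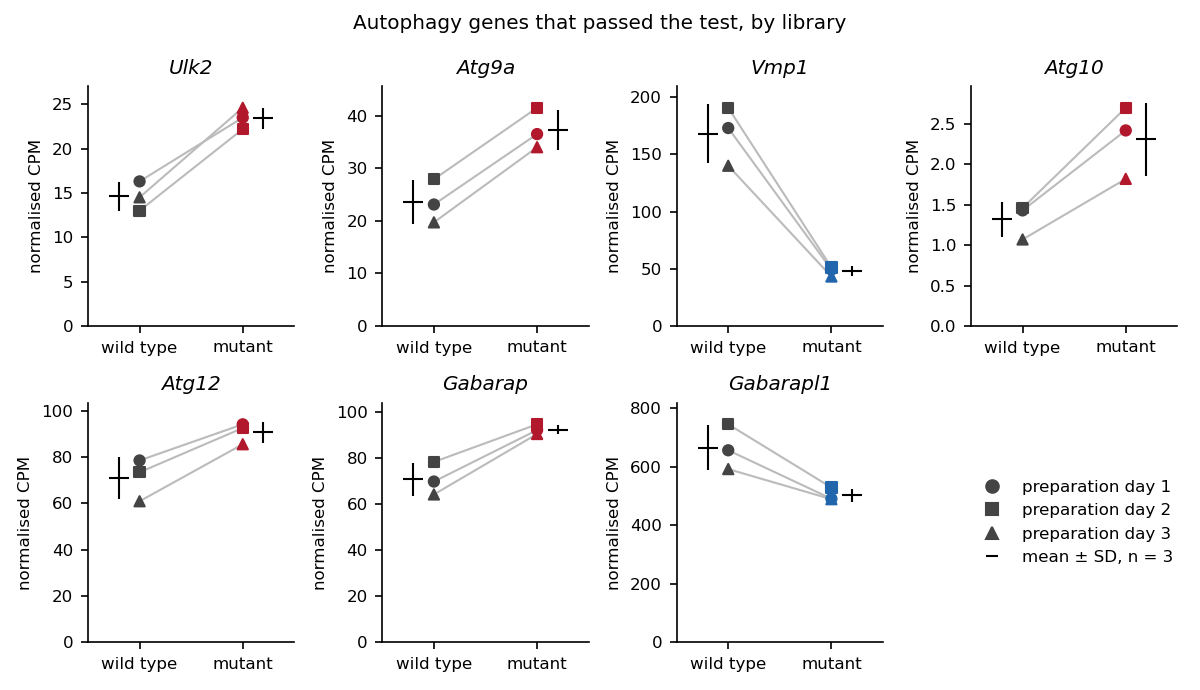
Normalised CPM (vertical axis, from 0) of the 7 autophagy genes that passed the test, in wild-type and mutant pools, with lines joining the pools of a preparation day and bars giving mean ± SD (n = 3). In each panel the 3 mutant pools lie on one side of the 3 wild-type pools, with the widest separation for Vmp1, at 43.2 to 51.1 against 140.1 to 190.8 CPM.

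Among the tested genes within 250 kb of Vmp1, Gm11478 was also lower. It is a transcribed pseudogene inside the span of Vmp1 on the same strand, at 86630492 to 86631063, and it overlaps 0 annotated Vmp1 exons. Gm11478 went from 109.2 ± 5.90 CPM in wild-type to 70.3 ± 2.01 CPM in mutant pools (SD, n = 3 each), or -0.64 on the log2 scale (adjusted p = 0.000282 by edgeR). How much of its count comes from unspliced Vmp1 RNA was not tested.

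Ptrh2 stood at 0.580, 0.748 and 0.775 CPM in wild-type and 0.298, 0.286 and 0.297 CPM in mutant pools. Its 3 wild-type pools were above 0.5 CPM and 0 mutant pools were, so Ptrh2 is in the tables only through the genotype in which it was high. A gene that enters this way had to differ, so its log2 difference of -1.25 is a description and supports nothing about the neighbourhood.

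The remaining neighbours did not pass. On the log2 scale Med13, of the Mediator kinase module, differed by 0.28 and the S6 kinase gene Rps6kb1 by 0.16. Rnft1 had -0.23, the clathrin heavy chain gene Cltc -0.08 and the helicase gene Dhx40 -0.30. Med13 passed once the day was a block (adjusted p = 0.00927 by edgeR).

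**Figure D2:**
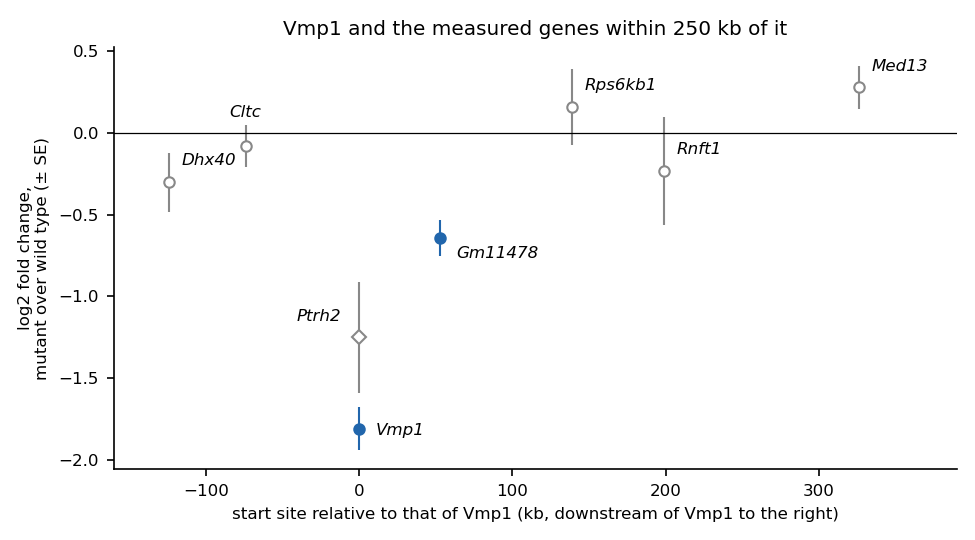
Log2 fold change (mutant over wild type, ± SE) of Vmp1 and the 7 measured genes within 250 kb, against the distance of each start site from that of Vmp1 in kb. Filled points passed the test, and Vmp1 (-1.81) and Gm11478 (-0.64) are those below zero. The open diamond is Ptrh2 (-1.25), in the tables through the wild-type pools alone.

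Over the whole set, 7 of the 43 autophagy genes passed the edgeR test at an adjusted p of 0.05, or 16.3%, while 22.1% of all genes did. Of the 43, 5 were higher in the mutant (11.6%, beside 12.9% of all genes) and 2 lower (4.65%, beside 9.16% of all genes). In this fit, which leaves out the day, the share that passed was thus no larger than the background. The higher genes were Ulk2, Atg9a, Atg10, Atg12 and Gabarap, and the lower ones Vmp1 and Gabarapl1. The median log2 fold change was 0.04 over the 43 genes and -0.04 over all genes, and Vmp1 was the 1 member beyond 2-fold. The genotypes did not overlap for 16 of the 43 genes (37.2%), beside 36.3% of all genes.

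The labels pair the pools by day. With the day as a block in the fit, calls became more frequent among the members and in the background alike. Then 12 members were higher (27.9%, beside 22.0% of all genes) and 7 lower (16.3%, beside 18.0% of all genes), which is 44.2% of the 43 against 40.0% of all genes. The 7 calls without the block were among these 19. DESeq2 with the same block called 10 of 42 tested members higher (23.8%, beside 17.8% of all genes) and 3 lower (7.14%, beside 10.3%).

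**Figure D3:**
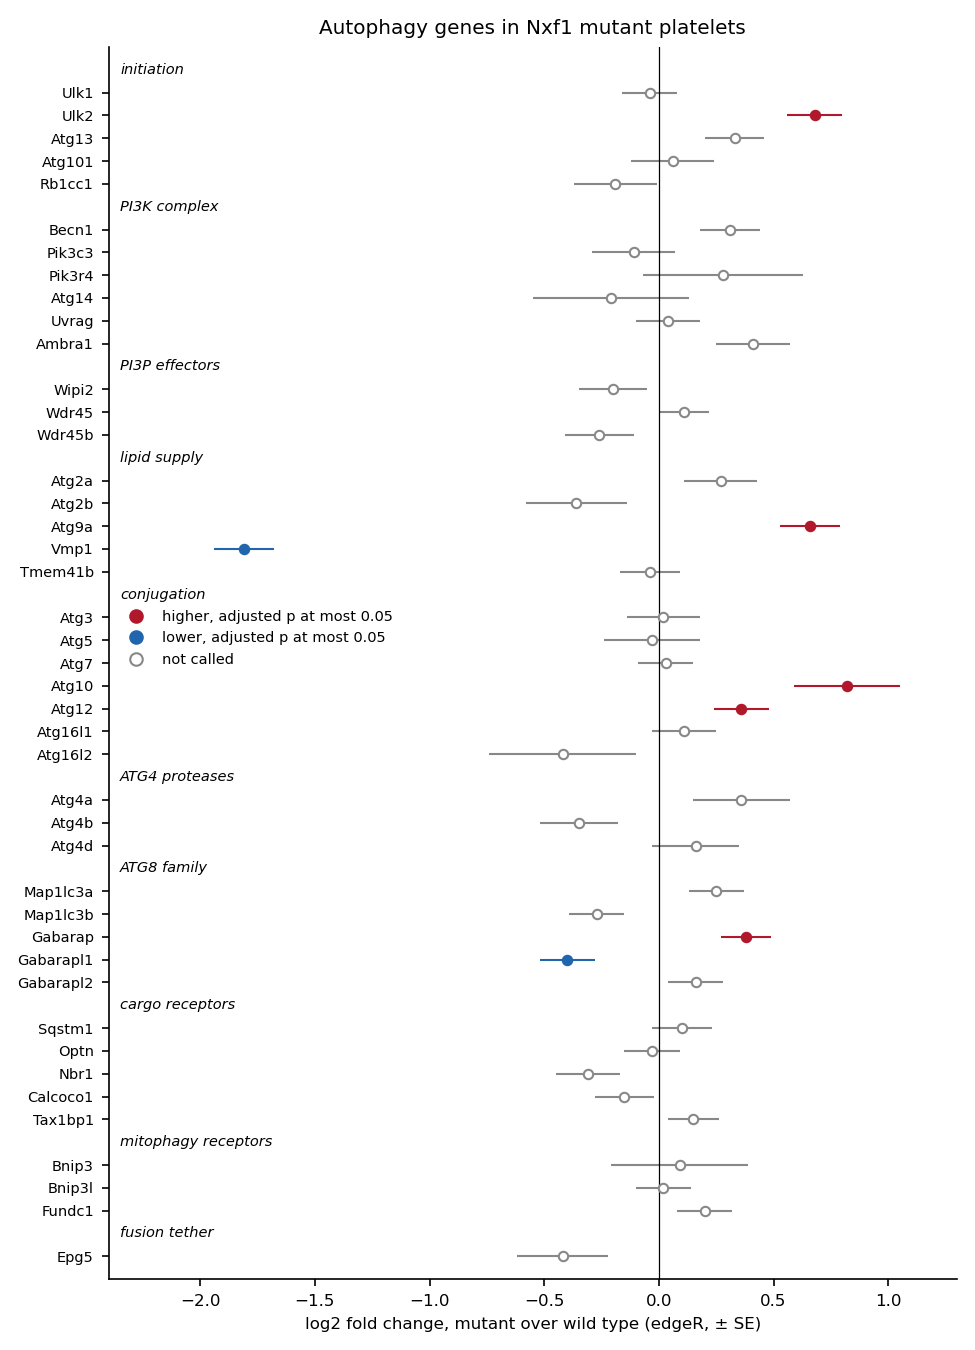
Log2 fold change (mutant over wild type, ± SE, edgeR without the day) of the 43 autophagy genes in the tables, grouped by role, with filled points for genes past an adjusted p of 0.05. Vmp1 stands alone at -1.81, while the other 42 genes lie between -0.42 and 0.82.

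In the initiation complex 1 of 5 genes rose (20%, beside 12.9% of all genes). Ulk2, which encodes a kinase that starts autophagy, stood at 16.3, 13.0 and 14.5 CPM in the wild-type and 23.5, 22.2 and 24.6 CPM in the mutant pools of days 1, 2 and 3. Every mutant pool was above every wild-type pool. Ulk2 thus rose by 0.68 ± 0.12 on the log2 scale (SE, edgeR, adjusted p = 0.000386), and Ulk2 passed in all 20 alternatives run. Ulk1, its closest relative, named here after its values were seen, had -0.04 (adjusted p = 0.843). Atg13, the scaffold that binds both kinases, had 0.33 (adjusted p = 0.0733), and passed with the block (0.000143 by edgeR). The remaining 2 genes had values of -0.19 and 0.06.

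The ratio of Ulk2 to Ulk1 counts does not depend on how the libraries are scaled. Within each library it was 0.447, 0.474 and 0.591 in the mutant and 0.310, 0.258 and 0.342 in the wild-type pools of days 1 to 3. The mean ratios were 0.504 ± 0.0767 and 0.303 ± 0.042 (SD, n = 3 each, two-sided exact permutation p = 0.1, the smallest that 3 against 3 allows). This ratio is 1 of 4 computed, for pairs picked after their values were seen, and all 4 gave an exact p of 0.1, also after adjustment over the 4. Ulk2 already separated the genotypes and Ulk1 hardly differed, so the ratio describes the rise of Ulk2 and adds no support for it.

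In the complex that makes PI3P, 0 of 6 genes passed without the block, beside 22.1% of all genes. Their log2 fold changes ran from -0.21 to 0.41. Becn1, which encodes its core subunit Beclin 1, stood at 852.6, 925.3 and 663.6 CPM in wild-type and 1040, 1084 and 894.5 CPM in mutant pools. The mutant pool was higher on each day, yet the lowest mutant pool lay below the highest wild-type pool. Becn1 differed by 0.31 ± 0.13 on the log2 scale (SE), with an adjusted p of 0.111 by edgeR, and of 2.04e-05 with the block. Ambra1, which encodes a Beclin 1 partner, had 0.41 (adjusted p = 0.0702 by edgeR, 0.000374 with the block).

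Of the 3 measured PI3P effectors, proteins that read this lipid, 0 passed, beside 22.1% of all genes. Their values ran from -0.26 to 0.11, and Wdr45b had -0.26 (adjusted p = 0.224 by edgeR, 0.0356 with the block).

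Among the 5 genes of lipid supply, Atg9a rose while Vmp1 fell (20% each, beside 12.9% and 9.16% of all genes). Atg9a encodes the scramblase carried on small vesicles that seed the new membrane. Atg9a stood at 23.1, 27.9 and 19.7 CPM in wild-type and 36.5, 41.5 and 34.0 CPM in mutant pools. The lowest mutant pool was above the highest wild-type pool. Atg9a rose by 0.66 ± 0.13 on the log2 scale (SE, edgeR, adjusted p = 0.00107), and it passed in all 20 alternatives.

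Tmem41b, named after its values were seen, encodes a scramblase of the endoplasmic reticulum related to VMP1 and differed by -0.04 on the log2 scale (adjusted p = 0.873). The library ratio of Vmp1 to Tmem41b counts was 3.52, 3.97 and 3.55 in mutant and 12.2, 13.4 and 12 in wild-type pools, without overlap (exact permutation p = 0.1). Vmp1 already separated the genotypes and Tmem41b hardly differed. Their ratio thus had to separate the genotypes too, and it adds no support. The lipid transfer gene Atg2a had 0.27 (adjusted p = 0.245 by edgeR, 0.015 with the block), and the last gene of the group had -0.36.

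In the conjugation systems 2 of 7 genes rose (28.6%, beside 12.9% of all genes) and 0 fell (beside 9.16%). Atg10 encodes the enzyme that hands ATG12 to ATG5. Atg10 stood at 1.43, 1.46 and 1.07 CPM in wild-type and 2.42, 2.70 and 1.82 CPM in mutant pools, without overlap, at low counts. Its rise was 0.82 ± 0.23 on the log2 scale (SE, edgeR, adjusted p = 0.0154). Its call was lost without mutant replicate 1 or 2, wild-type replicate 3, day 1 or day 2, with a highest adjusted p of 0.168, and with library size alone.

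Atg12, which encodes the ubiquitin-like protein itself, stood at 78.5, 73.4 and 60.9 CPM in wild-type and 94.1, 92.5 and 85.5 CPM in mutant pools, again without overlap. Its rise was smaller, 0.36 ± 0.12 on the log2 scale (SE, edgeR, adjusted p = 0.0377). It kept its call without mutant replicate 3 and without day 3, and lost it in the other 7 fits that left out a library or a day, with a highest adjusted p of 0.328. It also lost the call with RLE size factors and without the 10 most abundant genes. Atg12 overlaps Ap3s1 on the other strand by 31 bases, and Ap3s1, named for this overlap after its values were seen, stood at 2.16 and 2.37 CPM in mutant and wild-type pools. The other 5 conjugation genes lay between -0.42 and 0.11.

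Of the 3 measured ATG4 proteases, which trim ATG8 proteins and release them from membrane, 0 passed, beside 22.1% of all genes. Atg4b, with wild-type values of 3.71, 3.74 and 3.81 CPM and mutant values of 3.06, 2.98 and 2.78 CPM, differed by -0.35 on the log2 scale (adjusted p = 0.161 by edgeR, 0.0428 with the block). The other pair had 0.16 and 0.36.

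Of the 5 ATG8 genes Gabarap rose and Gabarapl1 fell (20% each, beside 12.9% and 9.16% of all genes), and 3 did not pass. Gabarapl1 stood at 656.9, 745.7 and 592.6 CPM in wild-type and 491.2, 529.5 and 489.6 CPM in mutant pools. Gabarap stood at 69.7, 78.2 and 64.1 CPM in wild-type and 92.0, 94.5 and 90.3 CPM in mutant pools. Neither gene showed an overlap between the genotypes.

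Gabarapl1 changed by -0.40 ± 0.12 on the log2 scale (SE, edgeR, adjusted p = 0.0178). Gabarap changed by 0.38 ± 0.11 (SE, edgeR, adjusted p = 0.019). Gabarapl1 lost its call without mutant replicate 1 or 3, wild-type replicate 2, day 1 or day 2 (highest adjusted p = 0.22 by edgeR). Gabarap lost it without mutant replicate 1 or 2, wild-type replicate 1, day 1 or day 2 (highest adjusted p = 0.246 by edgeR). Gabarapl1 overlaps 1700101I11Rik on the other strand by 93 bases. The TruSeq RNA v2 kit of the libraries keeps no strand, so reads there cannot be told apart, and 1700101I11Rik, named for the overlap after its values were seen, was lower by -0.88 on the log2 scale, at 7.37 CPM in mutant pools.

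The ratio of Gabarapl1 to Gabarap counts put this contrast within each library. It was 9.42, 9.53 and 9.24 in the wild-type and 5.34, 5.60 and 5.42 in the mutant pools of days 1, 2 and 3. The means were 9.40 ± 0.145 in wild-type and 5.46 ± 0.136 in mutant pools (SD, n = 3 each, exact permutation p = 0.1). Both genes already separated the genotypes, in opposite directions, so their ratio had to separate the genotypes too. The ratio thus describes the contrast and adds no support for it.

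Map1lc3b and Map1lc3a, which encode LC3B and LC3A, differed by -0.27 and 0.25 on the log2 scale (adjusted p = 0.103 and 0.141 by edgeR). With the block both were called, at 0.000322 and 0.00654. Their count ratio was 25.5 ± 1.83 in wild-type and 17.8 ± 0.925 in mutant pools (SD, n = 3 each, exact permutation p = 0.1). Neither gene overlapped between the genotypes and they went opposite ways, so this ratio too had to separate the genotypes. Gabarapl2 had 0.16 (adjusted p = 0.394 by edgeR, 0.0359 with the block). With the block 3 of the 5 were thus higher and 2 lower, where 22.0% and 18.0% of all genes were.

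Cargo receptors link ubiquitin-tagged or other cargo to ATG8 proteins, and 0 of 5 passed, beside 22.1% of all genes. Their log2 fold changes ran from -0.31 to 0.15. Nbr1, a receptor for ubiquitinated proteins, had -0.31 (adjusted p = 0.139 by edgeR). Its values within days were -0.43, -0.56 and 0.09, so day 3 went the other way, although the block fit called it (0.00115). Of the 3 mitophagy receptors, which mark mitochondria for removal, 0 passed, beside 22.1% of all genes. Fundc1 had 0.20 (adjusted p = 0.262 by edgeR, 0.0195 with the block). Epg5, which encodes a tether of autophagosomes to lysosomes, had -0.42 (adjusted p = 0.162 by edgeR, 0.0417 with the block).

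Bnip3l, which encodes the receptor NIX that clears mitochondria from maturing red cells, did not pass. It stood at 1463, 1409 and 1174 CPM in wild-type and 1439, 1392 and 1278 CPM in mutant pools, so the genotypes overlapped. On the log2 scale it differed by 0.02 ± 0.12 (SE, edgeR, adjusted p = 0.921). Red cell markers differed greatly by day in the same pools. The summed level of the 11 measured erythroid markers was 31531 CPM in the mutant and 35731 CPM in the wild-type pool of day 1, 7.38 and 8.17 times the mean of the later days. Bnip3l on day 1 was 1.08 and 1.13 times its later mean.

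Levels per length, in CPM per kb of the deposited gene length, spanned from 0.191 to 448.1 over the 43 genes. Becn1 (448.1), Bnip3l (419.8), Gabarapl1 (329.5), Map1lc3b (222.6) and Gabarapl2 (219.4) had the highest means over the 6 libraries. Wild-type levels were 416.6 ± 47.4 for Bnip3l, 400.7 ± 66.5 for Becn1 and 375.1 ± 43.3 for Gabarapl1 (CPM per kb, SD, n = 3). Map1lc3b had 243.6 ± 27.3 and Gabarapl2 207.2 ± 27.9. These SDs give the spread between pools, and the order of the genes within a pool was not tested. Of the 43 genes 6 exceeded 100 CPM per kb and 8 were below 1, while the median of all genes in wild-type platelets was 1.44. Vmp1 had 60.6 CPM per kb in wild-type and 17.3 in mutant platelets, which moved it from rank 8 to rank 12 of the 43.

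**Figure D4:**
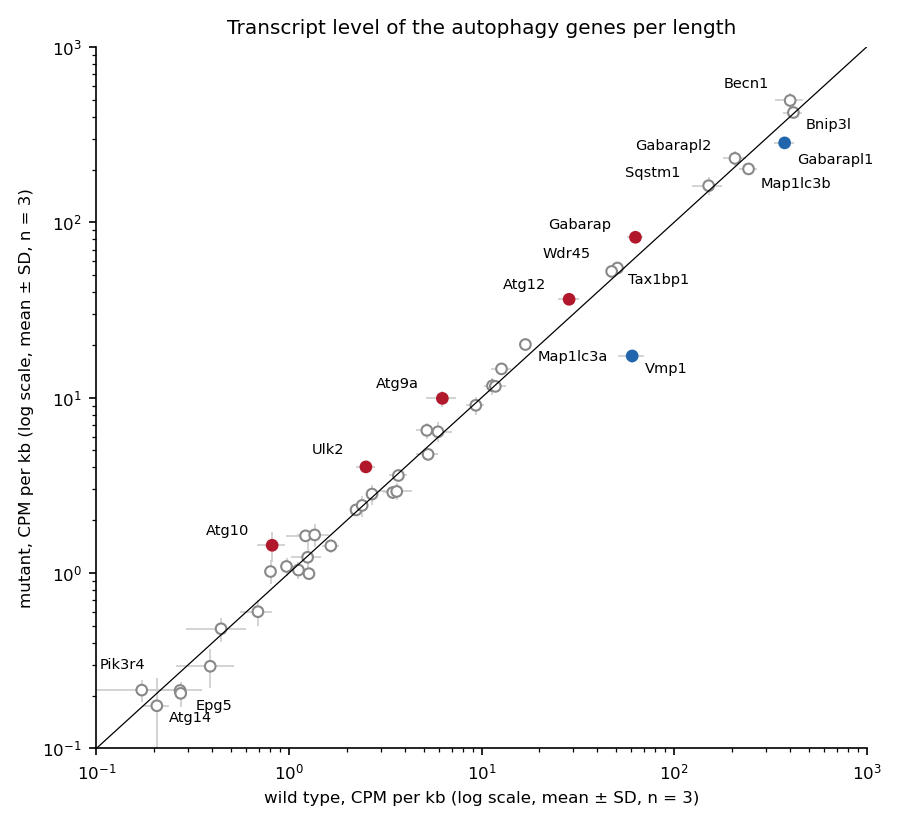
Level of each autophagy gene in wild-type (horizontal) and mutant platelets (vertical), as CPM per kb on log axes, mean ± SD of 3 pools, with the line of equal level. Vmp1 drops from 60.6 to 17.3, away from the line, while Becn1, Bnip3l and Gabarapl1 keep the highest levels in both genotypes.

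The genes around the core machinery were taken from 4 groups chosen by function, with earlier results of these data known. Of 94 such genes 88 were in the tables. Of these 21 rose (23.9%, beside 12.9% of all genes) and 1 fell (1.14%, beside 9.16%). Their median log2 fold change was 0.13, beside -0.04 over all genes. With the block 38 were higher (43.2%, beside 22.0% of all genes) and 10 lower (11.4%, beside 18.0%). With library size alone 14 were higher (15.9%, beside 9.73%) and 3 lower (3.41%, beside 9.25%). Without day 2, 7 were higher (7.95%, beside 4.94%) and 0 lower (beside 5.29%).

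Upstream control had 6 higher (21.4%, beside 12.9% of all genes) and 1 lower (3.57%, beside 9.16%) of 28 genes. Of the AMPK subunits, an energy-sensing kinase that activates ULK1, 1 gene of each subunit class rose. Prkab1 (beta) went from 104.9 ± 20.9 to 222.0 ± 34.4 CPM (SD, n = 3 each), up by 1.08 on the log2 scale (adjusted p = 2.49e-05 by edgeR). Prkag1 (gamma) had 0.94 and Prkaa2 (alpha) 0.78, and all 3 passed in 20 of 20 alternatives. Their partners in each class, named after their values were seen, were Prkab2 (-0.05), Prkag2 (-0.12) and Prkaa1 (0.00), which did not pass. Foxo3, a transcription factor that drives autophagy genes, rose by 0.62 on the log2 scale, and its call was lost without day 2 (adjusted p = 0.090 by edgeR). Mitf, of the TFEB family of lysosomal regulators and named after its values were seen, was the gene that fell (-0.78, 1.07 against 1.84 CPM), and its call was lost without mutant replicate 2, day 1 or day 2.

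Of 18 fusion genes 4 rose (22.2%, beside 12.9% of all genes) and 0 fell (beside 9.16%), with a median log2 fold change of 0.26. They were Vamp8 (0.68), the SNARE of autophagosome fusion and of platelet granule release, Mon1a (0.66) and Mon1b (0.53), which activate RAB7, and Rab7 itself (0.43). Without day 2 these 4 calls were lost. The other 3 besides Vamp8 were also lost without mutant replicate 1 or 2, wild-type replicate 1 or day 1.

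Of 25 lysosome genes 5 rose (20%, beside 12.9% of all genes) and 0 fell (beside 9.16%), with a median of 0.16. Atp6ap1, an accessory subunit of the proton pump, had 0.54, the hydrolase gene Gaa had 0.53, and Lamp1, the main lysosomal membrane protein, had 0.44. Calls were lost for Atp6ap1 without day 2 and for Gaa without mutant replicate 2 or day 2. Lamp1 lost its call without mutant replicate 1 or 2, wild-type replicate 1, day 1 or day 2.

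Of 17 further receptors and adaptors 6 rose (35.3%, beside 12.9% of all genes) and 0 fell (beside 9.16%). Ncoa4, the receptor for ferritin, went from 12.4 ± 1.31 to 23.8 ± 2.07 CPM (SD, n = 3 each, log2 fold change 0.95), and the ubiquitin-binding adaptor gene Tollip had 0.87. Both passed in 20 of 20 alternatives. Fkbp8, a mitochondrial outer membrane receptor, had 0.46, and its call was lost without mutant replicate 1 or 2, wild-type replicate 1, day 1 or day 2. Wdfy3, a scaffold for protein aggregates, had 0.67, and its call was lost without mutant replicate 2, day 2 or day 3. With library size alone Wdfy3, Mon1a, Mon1b and Gaa also lost their calls (adjusted p = 0.0613, 0.101, 0.0712 and 0.0818 by edgeR), as did Gaa among genes of a mean CPM of at least 10 (0.0521).

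**Figure D5:**
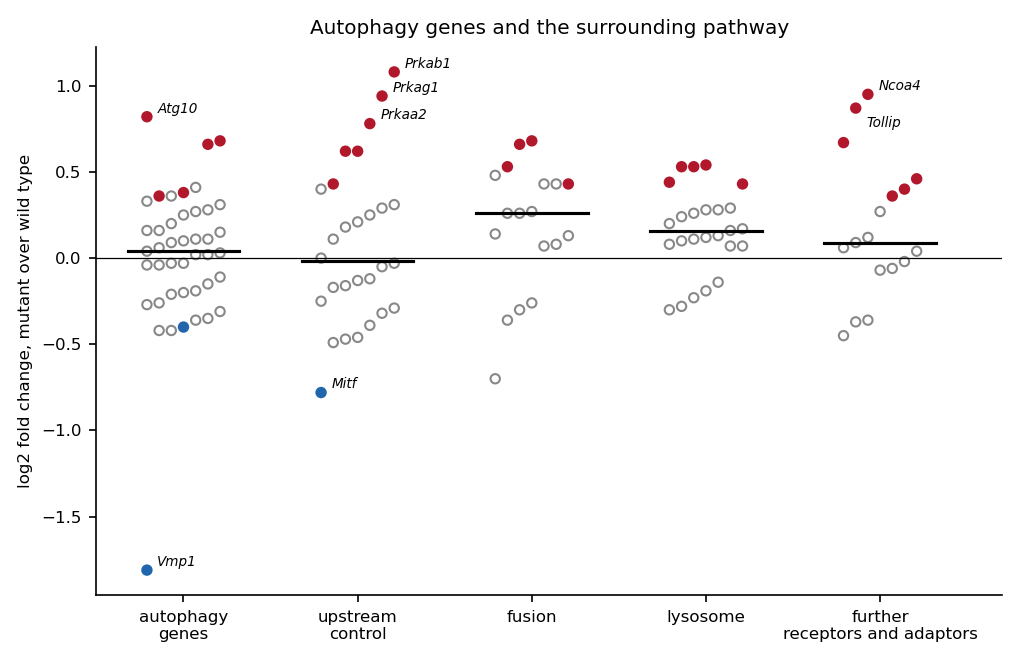
Log2 fold change (mutant over wild type) of the 43 autophagy genes and of 4 groups around them, 1 point per gene, filled where the gene passed an adjusted p of 0.05, with a bar at each group's median. The median is 0.04 for the autophagy genes and 0.26 for the fusion genes, beside -0.04 over all genes. The AMPK subunit genes Prkab1, Prkag1 and Prkaa2 top the upstream group.

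The promoters of the members were compared in sequence. RefSeq windows from 250 bases before to 50 after a start were found for 36 of the member genes, 42 windows in all, with a median GC content of 60.2%, beside 52.7% over all promoters. The E-box CACGTG, searched on both strands, was in 5 of the 42 windows (11.9%), beside 7.15% of all 32851 windows. They were those of Atg14, Atg3, Atg5, Atg7 and Bnip3, none of which passed the test. The bases GTAAACA, a form of the forkhead motif, were in 0 of the 42 and in 3.65% of all windows, on both strands. Other forms of the forkhead motif were not searched, so the 0 describes these exact bases alone. Both motifs were picked after the expression values were seen.

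Series-wide checks bear on all of these values. Totals ran from 25189231 to 29421549 counts per library. Nxf1 itself stood at 3.73 ± 1.05 CPM in wild-type and 3.29 ± 0.894 CPM in mutant pools (SD, n = 3 each, edgeR, adjusted p = 0.604), and a missense allele need not alter its transcript level, so this does not check the genotype labels. The 12 platelet markers were measured in every pool. Their sums were 45589 to 50342 CPM in mutant and 36714 to 44718 CPM in wild-type pools, without overlap. Single platelet markers went both ways on the log2 scale. Itgb3 (0.67), Tubb1 (0.62), Ppbp (0.61) and Gp6 (0.42) were called higher, or 33.3%, beside 12.9% of all genes. Gp1ba (-1.08) and Gp9 (-0.40) were called lower, or 16.7%, beside 9.16%. The marker sums of other cells were 169.5 to 223.3 against 192.7 to 270.5 CPM for B cells (11 of 11 markers measured) and 26.3 to 29.9 against 27.8 to 34.7 CPM for T and NK cells (10 of 13). Both sums were lower in the mutant pool on each of the 3 days, though for T and NK cells day 2 was close, at 29.9 against 30.2 CPM. Of the 10 T and NK markers 0 were called, beside 22.1% of all genes, with 7 log2 fold changes negative and 3 positive. With the block 3 of these 10 were lower (30%, beside 18.0% of all genes) and 1 higher (10%, beside 22.0%). Of the B cell markers 2 of 11 were called lower (18.2%, beside 9.16% of all genes), Cd79a (-0.54) and Igkc (-0.50). A negative log2 fold change was seen for 10 of the 11. With the block 7 of the 11 were lower (63.6%, beside 18.0% of all genes) and 1 higher (9.09%, beside 22.0%). The 7 of 14 neutrophil and monocyte markers that were measured summed to 1800 to 2115 against 1195 to 1643 CPM, mostly Lyz2 (0.49, called higher), while Fcgr1 (-0.67) and Ly6c2 (-0.76) were called lower. Of these 7 markers 14.3% were thus higher and 28.6% lower, beside 12.9% and 9.16% of all genes. The neutrophil genes Mpo, Elane and Ly6g were not in the tables. Two-sided exact permutation tests of the 5 sums, which do not use the pairing by day, gave adjusted p from 0.25 to 0.7. These marker genes were named after their values were seen. The part of these other transcripts in the autophagy results was not tested.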

How the data were processed

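PolyA RNA of 6 pooled platelet preparations was sequenced. The authors deposited raw counts for each Entrez gene, beside its length. The submitters' processing notes name CASAVA 1.8.2, Subread, featureCounts and mm10, and give no settings for strand or multi-mapping reads. Of 9822 genes 9636 were named from RefSeq GRCm38.p6.

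The counts went into edgeR 4.0.16 under R 4.3.3 (TMM, filterByExpr, which removed 0 genes, robust quasi-likelihood, genotype only, two-sided, Benjamini-Hochberg at 0.05 over all genes). In simulated counts with gene-wise dispersions both edgeR fits made somewhat more false calls than the nominal share, so calls close to the threshold are the least secure. The simulated counts held no effect of the day, so they cannot show how the fit with the block behaves on these pools. The smallest exact p of 3 against 3 is 0.1. The labels pair pools by preparation day. Deviations from group means had correlations of 0.52, 0.35 and 0.547 for pools of the same day, and of -0.0358 or less for pools of different days. Deviations cancel within a genotype, so positive same-day values push the different-day values below zero, and the latter are no separate sign of pairing. Within a genotype, counts differed beyond sampling noise. The labels do not say how many animals made a pool, and p-values cover the spread of these pools alone.

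Alternatives were scalings, filters, thresholds, DESeq2 1.42.0, limma-voom (limma 3.58.1), the day as a block, and each library or day left out. Genes named were Nxf1, Vmp1, the members called with or without the block, the 5 with the highest level per kb, up to 4 called genes of smallest p per surrounding group, and the neighbours within 250 kb of Vmp1. Others are marked as named after their values were seen. A gene that the rule takes is not reported here. Members and lists were chosen with earlier results of these data known.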

Additional observations from a re-analysis of the deposited data

How the results depend on the processing

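The log2 fold changes of Vmp1, Ulk2 and Atg9a passed in all 20 alternatives, with ranges of -1.97 to -1.74, 0.51 to 0.73 and 0.50 to 0.76. Over 394 recomputed values for 20 named members, 328 kept their side of the threshold, 25 lost it and 41 gained it, with 8 changes of sign among values near zero. With the preparation day as a replicate block, edgeR called 12 members higher and 7 lower, limma-voom 12 and 7, and DESeq2 10 and 3. Among all genes the block gave 2164 higher and 1765 lower by edgeR, 2163 and 1750 by limma-voom, and 1582 and 912 by DESeq2, and among the surrounding genes 38 and 10 by edgeR, 38 and 9 by limma-voom and 30 and 3 by DESeq2. The block fits lost 0 of the 7 member calls. At an adjusted p of 0.01 members numbered 2 higher and 1 lower, and all genes 767 and 565. Among genes of a mean CPM of at least 10, 4 of 23 members were higher and 5 lower, 725 of 3021 genes higher and 756 lower, and 13 of 39 surrounding genes higher and 4 lower. Surrounding genes lower numbered 3 under upper-quartile factors or library size alone, and 2 by limma-voom or when the 10 most abundant genes were left out. With 1 library or day left out, members higher ranged from 2 to 7 and lower from 1 to 4, all genes higher from 485 to 1387 and lower from 520 to 1002, and surrounding genes higher from 7 to 26 and lower from 0 to 3. These fits have fewer samples.

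The summed erythroid level (log2 ratio of means -0.15, not called) ranged from -1.80 to 1.61 with 1 library left out, reversing to 0.28, 0.26 and 1.61 without mutant replicate 2, mutant replicate 3 and wild-type replicate 1. The median log2 fold change of all genes was -0.04 with TMM or RLE, -0.09 with upper-quartile factors or without the 10 most abundant genes, and -0.13 with library size alone. Depth limits Atg10, Ptrh2 and other genes near or below 1 CPM.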
